A study of Homo sapiens with 6 samples.

Results

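The p53 pathway was followed through 31 genes in A549 cells after knockdown of GSE1. The genes are regulators of the tumor suppressor p53 and its direct targets, chosen by symbol, and each matched exactly 1 of the 60612 rows of the deposited gene table. These genes, and the lists set beside them below, were chosen with earlier results of these data known. The 6 libraries came from A549, an established human lung adenocarcinoma line of epithelial type, 48 hours after siRNA transfection. In 3 of them the cells had received an siRNA against GSE1 (siGSE1), and in 3 a negative control siRNA (control), with no other difference named in the labels. The labels give neither the siRNA sequence nor how many siRNAs were used, and they do not say that replicates were separate cultures, so the spread behind each p-value may be only technical. The stated aim was to find genes and pathways that depend on GSE1.

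p53 is a transcription factor that is held low in unstressed cells by the ubiquitin ligase MDM2 and its partner MDM4. When DNA damage or other stress blocks that control, p53 accumulates and switches on genes for cell cycle arrest, DNA repair and cell death, and also MDM2 itself, which closes a feedback loop. A549 cells are known to have lost CDKN2A, whose product ARF restrains MDM2.

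The members did not move in a common direction. CDKN1A, the cyclin-dependent kinase inhibitor p21, fell to 65.5% of its control level, the secreted stress cytokine GDF15 to 61.6% and the pro-apoptotic stress protein gene TP53INP1 to 61.8%. CCNG1, SESN1, ZMAT3 and RRM2B also fell. The damage sensor DDB2 rose 1.31-fold and the death receptor gene TNFRSF10B rose 1.22-fold. The MDM2 and BAX genes, 2 of the best-known p53 targets, did not pass the test. Of the 31 members, 30 had enough counts to be tested, of which 2 were higher, 7 lower and 21 did not pass an adjusted p of 0.05 by edgeR's quasi-likelihood test. Among all 15937 genes tested, 10.9% were higher and 9.02% were lower, against 6.67% and 23.3% of the tested members. The median tested member was more abundant in control cells than the median gene tested, and the part of abundance in these shares was not tested. The median log2 fold change was 0.01 over the members and 0.00 over all genes, with 15 members above 0 and 15 below.

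p53 binds DNA as a tetramer at pairs of adjacent decamers, and such a site near a gene's start is one route by which it activates a target. Promoter windows of 300 bases, 250 before and 50 after each annotated gene start, were available for 24 of the 31 members in the RefSeq table (build GRCh38.p14). They were searched for the p53 consensus site, 2 decamers of 10 bases with at most 1 base between them and at most 2 mismatches over the 20 bases. The consensus is its own reverse complement, so 1 pass reads both strands. At least 1 window held a site for 4 of 24 members (16.7%), DDB2, MDM2, FAS and AEN, and for 461 of 27305 genes in the table (1.69%). Because the members were picked as p53 targets or regulators, a higher share among them could be foreseen from the choice. They also had more windows per gene, 35 for 24 members against 35116 for 27305 genes. The 4 sites are given because 1 of these genes rose and the other 3 did not pass the test. All lie on the plus strand and are written 5′ to 3′, with the matched decamers in capitals. The DDB2 window that held the site is given whole, and the others with 20 bases on each side of the site.

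DDB2, chr11:47214724-47215023: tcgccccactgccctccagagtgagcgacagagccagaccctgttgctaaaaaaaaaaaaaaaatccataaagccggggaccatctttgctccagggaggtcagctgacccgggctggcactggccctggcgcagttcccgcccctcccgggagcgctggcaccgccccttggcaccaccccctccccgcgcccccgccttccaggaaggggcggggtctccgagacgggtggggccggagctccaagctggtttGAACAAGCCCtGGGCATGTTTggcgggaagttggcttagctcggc

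MDM2, chr12:68808903-68808962: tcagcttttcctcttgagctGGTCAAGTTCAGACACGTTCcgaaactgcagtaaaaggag

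FAS, chr10:88991289-88991348: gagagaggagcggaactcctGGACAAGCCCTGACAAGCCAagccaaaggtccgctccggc

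AEN, chr15:88621286-88621345: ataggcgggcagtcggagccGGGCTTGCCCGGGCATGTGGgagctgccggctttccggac

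The DDB2 site had 0 mismatches and 1 base between its decamers, and the other 3 had 2 mismatches and no such base. Relative to the annotated start of the window that held it, the first base of the site lay at 5 in DDB2, at -122 in FAS and at -34 in AEN. In MDM2 it lay at -94 and -101 from 2 annotated starts 7 bases apart, those of the internal promoter known to respond to p53. DDB2, FAS and MDM2 also had windows at annotated starts farther upstream, which held no site. The marked sites of these genes lie downstream of those starts. The windows of CDKN1A and GDF15, the most abundant members that fell, are shown for comparison, and neither held a match. No match says only that no stretch of the window was within 2 mismatches of the consensus. A site with more mismatches, or one outside the window, would be missed for either gene. The known p53 sites of CDKN1A lie farther upstream than the window reaches.

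CDKN1A, chr6:36678464-36678763: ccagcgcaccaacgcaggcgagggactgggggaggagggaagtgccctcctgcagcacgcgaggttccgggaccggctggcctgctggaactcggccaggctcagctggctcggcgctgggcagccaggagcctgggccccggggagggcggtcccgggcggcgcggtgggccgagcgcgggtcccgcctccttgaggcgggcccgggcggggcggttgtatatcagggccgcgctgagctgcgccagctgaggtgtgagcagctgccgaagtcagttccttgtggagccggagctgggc

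GDF15, chr19:18385908-18386207: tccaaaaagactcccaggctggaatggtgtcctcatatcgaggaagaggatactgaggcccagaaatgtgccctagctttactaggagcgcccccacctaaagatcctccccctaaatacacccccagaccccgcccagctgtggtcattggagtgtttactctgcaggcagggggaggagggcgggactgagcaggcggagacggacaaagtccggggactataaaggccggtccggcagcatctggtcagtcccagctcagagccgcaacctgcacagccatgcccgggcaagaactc

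Across the series, the libraries held 17521807 to 19914346 counts in siGSE1 cells and 14475992 to 20755506 in control cells. GSE1 itself had 3.84, 4.06 and 3.73 FPKM (counts per exon length, scaled to the library's total) in siGSE1 cells and 7.37, 8.06 and 7.92 in control cells, which is a change of -1.03 on the log2 scale (SE 0.06, edgeR adjusted p = 2.14e-08), so the labels matched the target. All 8 genes of a list of epithelial markers, which includes the enzyme genes AKR1B10 and ALDH3A1, were detected. Their summed levels were 5054 to 5204 FPKM in siGSE1 libraries and 5832 to 6716 in control libraries. Of the 8, 4 were lower (50%), beside 9.02% of all genes tested. The enzyme gene AKR1B10 made up most of that sum, at 2758 FPKM in siGSE1 cells and 3407 in control cells, and ALDH3A1, KRT8 and KRT18 also fell, whereas CDH1, KRT7, KRT19 and EPCAM did not pass, EPCAM averaging 0.67 FPKM in siGSE1 cells and 0.96 in control cells. Their part in the results was not tested. In these libraries 12 of 14 markers of blood, fibroblast and endothelial cells stayed under 1 FPKM in every library. The summed level of those 14 was 4.79 to 6.54 FPKM in siGSE1 libraries and 4.90 to 6.94 in control libraries. By chi-square per degree of freedom control replicate 2 stood apart, at 10.2 and 9.04 against the other control libraries. Pairs of the other libraries within a group had 2.48 to 4.57. By root mean square deviation from the group mean on the log2 scale it did not. That was 0.230, 0.235 and 0.232 in control replicates 1, 2 and 3, and 0.123, 0.138 and 0.137 over the members. Without control replicate 2, 4 members were higher and 9 lower. The additions were XPC and PLK2 above and GADD45A and SERTAD1 below. Over all genes 1914 were then higher and 1648 lower, against 1730 and 1437 with it. All p-values below are from edgeR, adjusted over all genes tested, and intervals are 95% intervals of the log2 fold change, not adjusted for multiple tests.

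**Figure D1:**
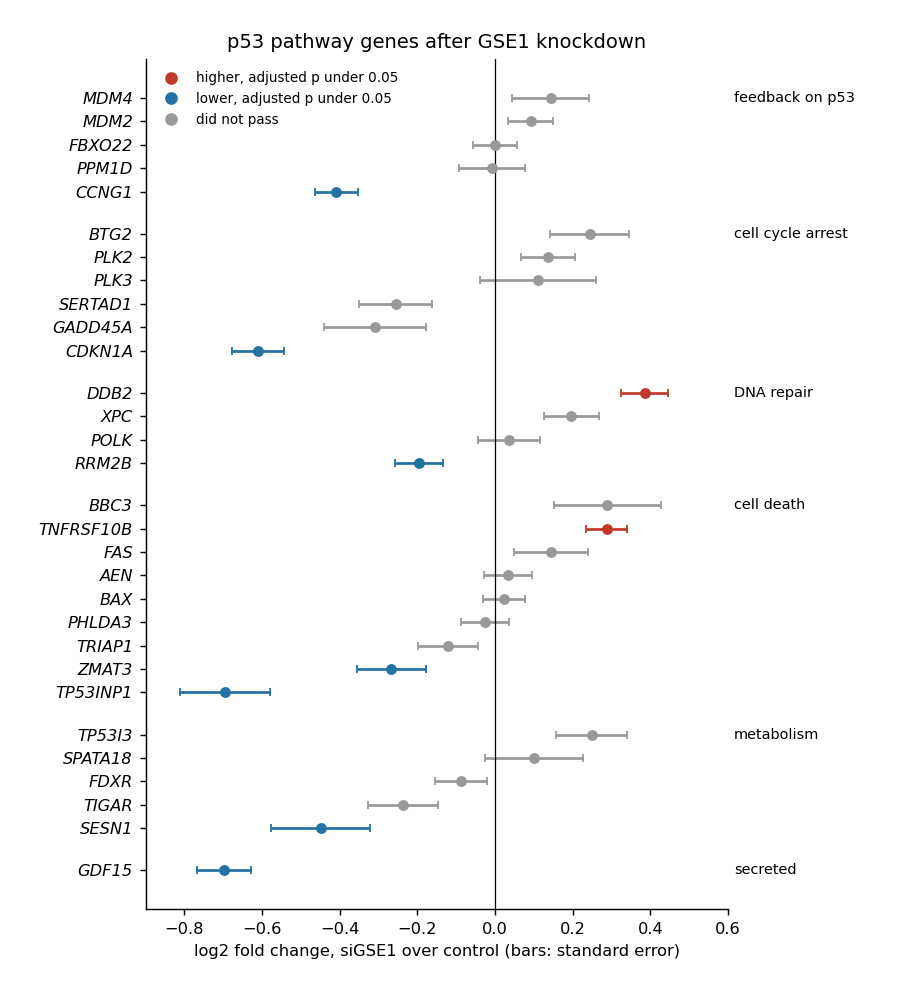
The log2 fold change of siGSE1 over control on the x axis, for the 30 tested members grouped by role, with points for the estimate and bars for its standard error. Blue marks the 7 that fell, red the 2 that rose and grey the 21 that did not pass; GDF15, TP53INP1 and CDKN1A lie farthest left, at -0.70, -0.70 and -0.61, and the signs of PPM1D, FBXO22 and PHLDA3 flip with TPM scaling.

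Among the genes that feed back on p53, CCNG1 moved and the 4 others did not pass. CCNG1 encodes cyclin G1, which recruits the phosphatase PP2A to MDM2. It lies on chromosome 5 at 163437569 to 163446151 in hg38 (plus strand). Its level was 30.5, 31.7 and 31.5 FPKM in siGSE1 replicates 1, 2 and 3, against 42.8, 39.3 and 39.9 FPKM in control replicates 1, 2 and 3. The groups did not overlap, and the log2 fold change was -0.41 (SE 0.06, adjusted p = 0.000106). In a bulk library, fewer cells expressing a gene and less RNA per cell cannot be told apart, here and for every member below.

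MDM2, the ligase that marks p53 for degradation, had 6.29, 6.25 and 6.04 FPKM in siGSE1 cells and 5.38, 5.99 and 5.77 FPKM in control cells. Every siGSE1 value was above every control value, but the change of 0.09 on the log2 scale (SE 0.06, adjusted p = 0.299) did not pass, with an interval of -0.03 to 0.21. The CPM gene overlaps MDM2 on the opposite strand and carried 26.2% as many counts. CPM had 3.61 ± 0.22 FPKM in siGSE1 cells and 1.94 ± 0.22 FPKM in control cells (SD, n = 3 each), higher by 0.87 on the log2 scale (adjusted p = 1.69e-05). The sources used here do not say whether counting used strand, and any part of CPM reads in the MDM2 value was not tested. MDM4, which binds and inhibits p53, had an interval of -0.07 to 0.35 around 0.14 (adjusted p = 0.347). PPM1D, the phosphatase WIP1 that removes activating phosphates from p53, had 4.59 ± 0.08 FPKM in siGSE1 cells and 4.54 ± 0.28 FPKM in control cells (SD, n = 3 each). The ubiquitin ligase subunit gene FBXO22 had 6.59 ± 0.17 and 6.49 ± 0.24 FPKM in siGSE1 and control cells. Their intervals were -0.19 to 0.17 for PPM1D and -0.12 to 0.12 for FBXO22.

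In the group of cell cycle genes, CDKN1A fell and the other 5 did not pass. CDKN1A lies on chromosome 6 at 36676460 to 36687337 (plus strand) and was the most abundant member in control cells. It had 55.7, 56.8 and 59.3 FPKM in siGSE1 replicates 1, 2 and 3 and 92.4, 76.2 and 89.4 FPKM in control replicates 1, 2 and 3. The highest siGSE1 value lay well under the lowest control value, that of control replicate 2. The counts behind these values were 2926 to 3536 in siGSE1 cells and 3875 to 5681 in control cells. The log2 fold change was -0.61 (SE 0.07, adjusted p = 1.19e-05), and -0.69 without control replicate 2. With each library left out in turn it ran from -0.69 to -0.55.

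The 5 others split in sign. BTG2, an antiproliferative cofactor, had 7.43, 7.41 and 6.63 FPKM in siGSE1 cells and 6.52, 5.43 and 5.84 FPKM in control cells. The groups did not overlap, yet the log2 fold change of 0.24 (adjusted p = 0.104) did not pass. The CDK4-binding protein gene SERTAD1 had 9.67, 8.99 and 8.51 FPKM in siGSE1 cells and 11.3, 9.83 and 10.7 FPKM in control cells, again without overlap, at -0.26 (adjusted p = 0.0665). GADD45A, a growth arrest and stress signaling gene, had 10.6, 10.4 and 11.5 FPKM in siGSE1 cells and 12.8, 10.3 and 16.8 FPKM in control cells. Its control libraries spread more than those of most members, and its estimate of -0.31 (adjusted p = 0.112) became -0.47 (adjusted p = 0.000610) without control replicate 2, the lowest of the 3. PLK2 and PLK3, polo-like kinases of the stress response, had estimates of 0.14 and 0.11 (adjusted p = 0.189 and 0.660). Without control replicate 2 PLK2 passed at 0.22 (adjusted p = 0.00336), while PLK3 turned to -0.07.

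The repair genes went both ways. DDB2 and XPC recognize damage in nucleotide excision repair. DDB2 (chromosome 11, 47214465 to 47239217, plus strand) had 18.5, 19.4 and 18.7 FPKM in siGSE1 replicates 1, 2 and 3, against 14.8, 13.3 and 14.6 FPKM in control replicates 1, 2 and 3. The groups were well apart, at a change of 0.39 on the log2 scale (SE 0.06, adjusted p = 0.000289). XPC had 12.6, 13.5 and 13.0 FPKM in siGSE1 cells and 10.1, 12.2 and 11.3 FPKM in control cells, also without overlap. Its estimate of 0.20 (SE 0.07, adjusted p = 0.0601) did not pass, and its adjusted p was 0.00481 without control replicate 2, the highest of the control libraries. RRM2B encodes the p53-inducible small subunit of ribonucleotide reductase, which supplies nucleotides for repair. It had 10.4, 10.7 and 9.67 FPKM in siGSE1 cells, against a tight 11.5, 11.6 and 11.6 FPKM in control cells. It was lower by a small amount, at a change of -0.20 on the log2 scale (SE 0.06, adjusted p = 0.0325). The call did not hold without siGSE1 replicate 1, 2 or 3 or without control replicate 1, where the adjusted p was 0.0761, 0.0620, 0.153 and 0.0737. POLK, a polymerase that copies past damaged bases, had 2.72 ± 0.07 FPKM in siGSE1 cells and 2.61 ± 0.10 FPKM in control cells (SD, n = 3 each), an estimate of 0.04 with an interval of -0.14 to 0.21. The CERT1 gene overlaps POLK on the opposite strand with 188% as many counts.

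Of the 10 genes of cell death, 1 rose, 2 fell, 6 did not pass and TNFRSF10C was too low to test. TNFRSF10B encodes the receptor DR5, through which the ligand TRAIL triggers apoptosis. It lies on chromosome 8 at 23020133 to 23069031 (minus strand). It had 69.1, 70.6 and 75.9 FPKM in siGSE1 replicates 1, 2 and 3, against 59.4, 56.2 and 58.0 FPKM in control replicates 1, 2 and 3. The groups did not overlap, and the log2 fold change was 0.29 (SE 0.05, adjusted p = 0.00127). The RHOBTB2 gene overlaps it on the opposite strand and had 16.6% as many counts, with a log2 fold change of 0.28 (adjusted p = 0.00919); a part of its reads in the TNFRSF10B value was not tested. TNFRSF10C encodes a TRAIL decoy receptor that lacks a death domain. It had 5, 5 and 9 counts in siGSE1 cells and 11, 6 and 5 counts in control cells, at which depth no difference was detectable, and shares its span and strand with AC107959.4, which carried 966% as many counts.

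TP53INP1 (chromosome 8, 94925972 to 94949378, minus strand) encodes a nuclear stress protein that promotes apoptosis and autophagy. Its level was low, at 1.91, 1.71 and 1.75 FPKM in siGSE1 cells and 3.19, 2.70 and 2.64 FPKM in control cells, from 187 to 369 counts a library. All siGSE1 values lay under all control values, at a change of -0.70 on the log2 scale (SE 0.12, adjusted p = 0.000536). The opposite-strand NDUFAF6 gene overlaps it with 96.6% as many counts, and had 2.02 ± 0.09 FPKM in siGSE1 cells and 1.92 ± 0.12 FPKM in control cells (SD, n = 3 each; log2 fold change 0.04, adjusted p = 0.821). ZMAT3, an RNA-binding zinc finger gene, had 2.46, 2.46 and 2.11 FPKM in siGSE1 cells and 2.55, 2.70 and 3.10 FPKM in control cells. The nearest libraries of the groups differed by little, and the log2 fold change was -0.27 (SE 0.09, adjusted p = 0.0447). ZMAT3 did not pass without siGSE1 replicate 1, 2 or 3 or without control replicate 3, where the adjusted p was 0.0688, 0.0763, 0.206 and 0.144.

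Neither BAX nor BBC3, which act at mitochondria in p53-driven death, passed the test. BAX, the pore-forming BCL2 family member, had 62.9, 67.9 and 67.7 FPKM in siGSE1 cells and 65.2, 61.3 and 65.4 FPKM in control cells. The groups overlapped, and the estimate of 0.02 had an interval of -0.09 to 0.14. BBC3, the BH3-only protein PUMA, had 5.70, 5.86 and 7.00 FPKM in siGSE1 cells and 3.78, 5.29 and 6.01 FPKM in control cells. Its control libraries spread widely, so an estimate of 0.29, as large as that of TNFRSF10B, had an SE of 0.14 and an adjusted p of 0.154. FAS, the receptor of FAS ligand, had 4.80 ± 0.26 FPKM in siGSE1 cells and 4.26 ± 0.50 FPKM in control cells (SD, n = 3 each), an estimate of 0.14 (adjusted p = 0.328). The smooth muscle actin gene ACTA2 overlaps FAS on the opposite strand with 39.4% as many counts and rose by 0.61 on the log2 scale (adjusted p = 0.00472). The nuclease gene AEN, the AKT inhibitor gene PHLDA3 and the apoptosis inhibitor gene TRIAP1 had estimates of 0.03, -0.03 and -0.12, with adjusted p of 0.765, 0.822 and 0.305.

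Of the metabolic and mitochondrial targets, SESN1 fell and 4 did not pass. SESN1 encodes sestrin 1, a leucine-responsive inhibitor of mTORC1 signaling, and lies on chromosome 6 at 108986437 to 109094819 (minus strand). It had 1.88, 1.61 and 1.92 FPKM in siGSE1 replicates 1, 2 and 3, against 2.65, 2.43 and 2.14 FPKM in control replicates 1, 2 and 3. The groups did not overlap, and the log2 fold change was -0.45 (SE 0.13, adjusted p = 0.0211). Without siGSE1 replicate 2 the adjusted p was 0.109, and without control replicate 1 it was 0.0927. TP53I3, a quinone oxidoreductase, had 49.5, 49.2 and 46.9 FPKM in siGSE1 cells and 44.6, 32.4 and 43.6 FPKM in control cells. It did not overlap between groups, but control replicate 2 was far under the others, and the estimate of 0.25 did not pass (adjusted p = 0.0654). With each library left out in turn the estimate ran from 0.11 to 0.34. Of these fits it passed only without control replicate 1, at 0.34 (adjusted p = 0.0195). TIGAR, a fructose bisphosphatase that diverts glucose toward NADPH, had 2.23, 2.64 and 2.81 FPKM in siGSE1 cells and 2.98, 3.02 and 2.90 FPKM in control cells, an estimate of -0.24 (adjusted p = 0.0773). FDXR, the reductase that feeds electrons to mitochondrial cytochromes P450, and SPATA18, a mitochondrial quality control gene, had estimates of -0.09 and 0.10 (adjusted p = 0.399 and 0.629).

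GDF15, a secreted cytokine of the TGF-beta superfamily that many stresses induce, had the smallest adjusted p of the members. It lies on chromosome 19 at 18374731 to 18389176 (plus strand). Its level was 49.1, 51.5 and 47.9 FPKM in siGSE1 replicates 1, 2 and 3, against 72.1, 74.8 and 90.5 FPKM in control replicates 1, 2 and 3. Even the highest siGSE1 library lay well under the lowest control library. The log2 fold change was -0.70 (SE 0.07, adjusted p = 5.31e-06), and -0.61 without control replicate 3, the highest.

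**Figure D2:**
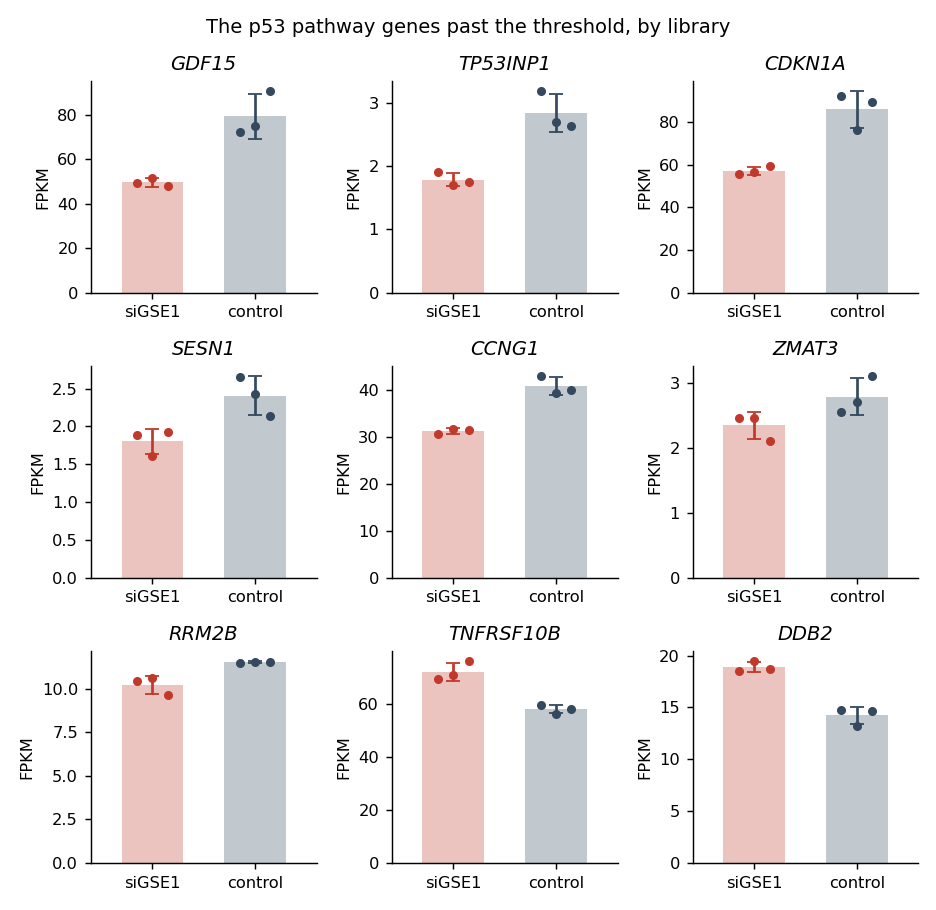
FPKM on the y axis for the 9 members past the threshold, 1 panel each, with a point per library, a bar for the mean and a line for the SD (n = 3 each). In all 9 panels the 3 siGSE1 libraries lie on 1 side of the 3 control libraries, with GDF15 at 47.9 to 51.5 in siGSE1 cells against 72.1 to 90.5 in control cells and ZMAT3 the closest, at up to 2.46 against 2.55.

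Without regard to the test, no overlap between groups was found in 15 of the 30 tested members (50.0%), with siGSE1 above in 6 and below in 9, where the same held for 36.1% of all genes tested. The tested members were the more abundant set, at a median of 10.9 FPKM in control cells against 3.77 over all genes tested. The largest change was smaller than the knockdown of GSE1 itself, and 3 members changed at least 1.5-fold, CDKN1A, GDF15 and TP53INP1. Relative to the control mean, the median member stood at -0.05, 0.00 and 0.05 on the log2 scale in siGSE1 replicates 1, 2 and 3 and at 0.05, -0.06 and 0.01 in control replicates 1, 2 and 3. The 2 sets overlapped.

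Per exon length, the members spanned a wide range of levels. In siGSE1 cells TNFRSF10B led with 71.9 ± 3.54 FPKM, before BAX with 66.1 ± 2.81, CDKN1A with 57.3 ± 1.82, PLK2 with 52.5 ± 1.52 and GDF15 with 49.5 ± 1.85 (SD, n = 3 each). In control cells CDKN1A led with 86.0 ± 8.60 FPKM, before GDF15 with 79.2 ± 9.94, BAX with 64.0 ± 2.29, TNFRSF10B with 57.9 ± 1.61 and PLK2 with 46.8 ± 5.30. In control cells CDKN1A and GDF15 overlapped across libraries, and in siGSE1 cells TNFRSF10B and BAX did not. The least abundant tested members were MDM4, SPATA18, SESN1, POLK, ZMAT3, TIGAR and TP53INP1, all under 3 FPKM on average in both groups, and TNFRSF10C stood at 0.21 and 0.25 FPKM in siGSE1 and control cells.

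**Figure D3:**
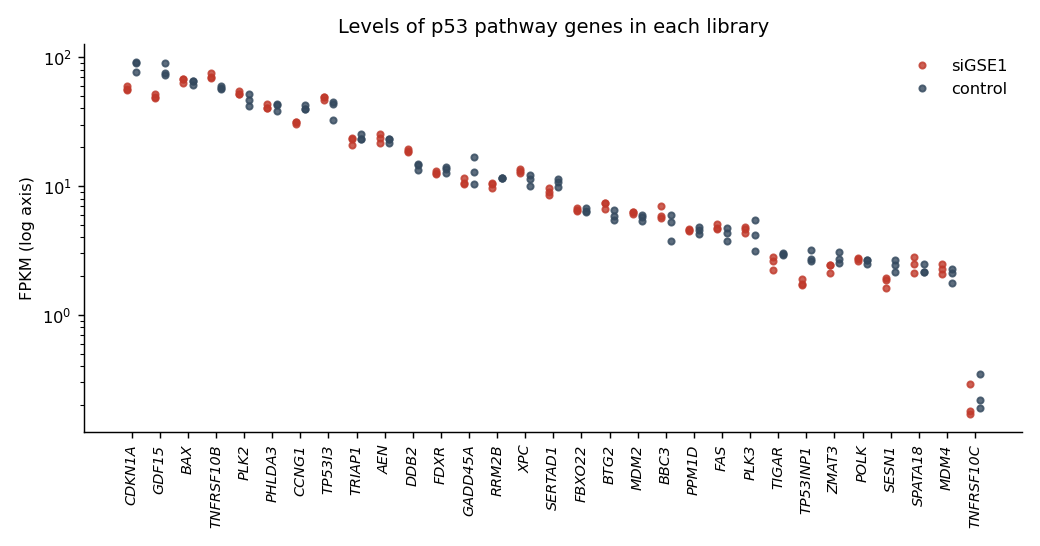
FPKM on a log axis for all 31 members, ordered by their mean in control cells, with siGSE1 libraries in red and control libraries in dark blue, 1 point each. CDKN1A and GDF15 head the order in control cells and lie below TNFRSF10B in siGSE1 cells, and TNFRSF10C lies apart at the low end with 5 to 11 counts a library.

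Of 32 genes outside the members that act on or beside p53, 30 were tested, of which 4 rose (13.3%), 5 fell (16.7%) and 21 did not pass, where 10.9% of all genes tested were higher and 9.02% lower. SETD7, a lysine methyltransferase with p53 among its substrates, rose to 14.4 ± 0.21 FPKM in siGSE1 cells, against 8.20 ± 0.99 FPKM in control cells (SD, n = 3 each). The change was 0.79 on the log2 scale (SE 0.07, adjusted p = 1.58e-06). TP63, a relative of p53 that binds similar sites, was low, with 1.43, 1.20 and 1.38 FPKM in siGSE1 cells and 0.68, 0.75 and 0.72 FPKM in control cells. It rose by 0.87 on the log2 scale (SE 0.14, adjusted p = 0.000404). The ribosomal protein gene RPL11, whose product can bind MDM2, and PPP1R13L, an inhibitor of p53 also called iASPP, rose by 0.17 and 0.32 but passed in 10 and 5 of the 14 alternatives, with adjusted p of up to 0.0996 and 0.255.

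Genes of cofactors and modifiers were among those that fell. The acetyltransferase EP300, which acetylates p53, had 7.24 ± 0.28 FPKM in siGSE1 cells and 9.27 ± 0.58 FPKM in control cells (log2 fold change -0.38, adjusted p = 0.000283). The arginine methyltransferase PRMT5 had 31.97 ± 0.61 and 41.1 ± 1.73 FPKM in siGSE1 and control cells (-0.39, adjusted p = 0.000143), and the kinase HIPK2, which phosphorylates p53, 15.2 ± 0.56 and 18.9 ± 1.18 FPKM (-0.34, adjusted p = 0.000389; SD, n = 3 each). NPM1 and RPL5, nucleolar and ribosomal proteins that can restrain MDM2, fell by 0.21 and 0.18 on the log2 scale and passed in 13 and 10 of the 14 alternatives. KDM1A, the demethylase of the CoREST complex and known to act on p53, had 17.5 ± 0.49 FPKM in siGSE1 cells and 17.2 ± 1.91 FPKM in control cells, a log2 fold change of 0.00 (adjusted p = 0.991), and its sign flipped with TPM scaling. CDKN2A had 0, 0 and 0 counts in siGSE1 libraries and 6, 6 and 0 in control libraries.

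Of 60 further targets of p53, 58 were tested, of which 9 rose (15.5%), 7 fell (12.1%) and 42 did not pass, with a median log2 fold change of 0.01. Both shares were near those over all genes tested, 10.9% and 9.02%. PERP, a membrane protein of cell adhesion and apoptosis, had 71.6 ± 1.92 FPKM in siGSE1 cells and 53.7 ± 5.50 FPKM in control cells (log2 fold change 0.39, adjusted p = 0.000434). SUSD6, TM7SF3, IKBIP, PTP4A1 and DCP1B rose by 0.49, 0.30, 0.35, 0.67 and 0.47. SFN, the 14-3-3 sigma protein that holds cells in G2, had 66.5 ± 2.84 FPKM in siGSE1 cells and 85.9 ± 7.88 FPKM in control cells (log2 fold change -0.40, adjusted p = 0.000843; SD, n = 3 each). ABHD4, the repressor gene BCL6, the antiviral gene TRIM22, the cytokine gene LIF and the noncoding RNA PVT1 had log2 fold changes of -0.46, -0.58, -0.91, -0.27 and -0.22. LIF passed in 7 of the 14 alternatives and PVT1 in 5, with adjusted p of up to 0.127 and 0.286.

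Many cell cycle genes are repressed when p21 activates the DREAM complex, and 33 of them were read beside CDKN1A. Of these, 10 rose (30.3%), 2 fell (6.06%) and 21 did not pass, beside 10.9% higher and 9.02% lower over all genes tested, with a median log2 fold change of 0.05. Their median control level was 19.6 FPKM, against 3.77 over all genes tested, and the part of abundance in these shares was not tested. MYBL2, a transcription factor of the G1/S and G2/M programs, had 38.3 ± 1.10 FPKM in siGSE1 cells and 23.6 ± 1.07 FPKM in control cells (SD, n = 3 each). The change was 0.67 on the log2 scale (SE 0.06, adjusted p = 1.45e-06). BIRC5, the inhibitor of apoptosis survivin, rose by 0.50, the centromeric histone gene CENPA by 0.49, the mitotic kinase gene AURKB by 0.39, E2F1 by 0.33 and topoisomerase TOP2A by 0.28. The mitotic kinase gene AURKA and cyclin B1 gene CCNB1 had log2 fold changes of -0.22 and -0.20 (adjusted p = 0.0101 and 0.0153), and passed in 12 and 10 of the 14 alternatives. The list was chosen with earlier results of these data known, and a relation between these genes and CDKN1A was not tested.

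**Figure D4:**
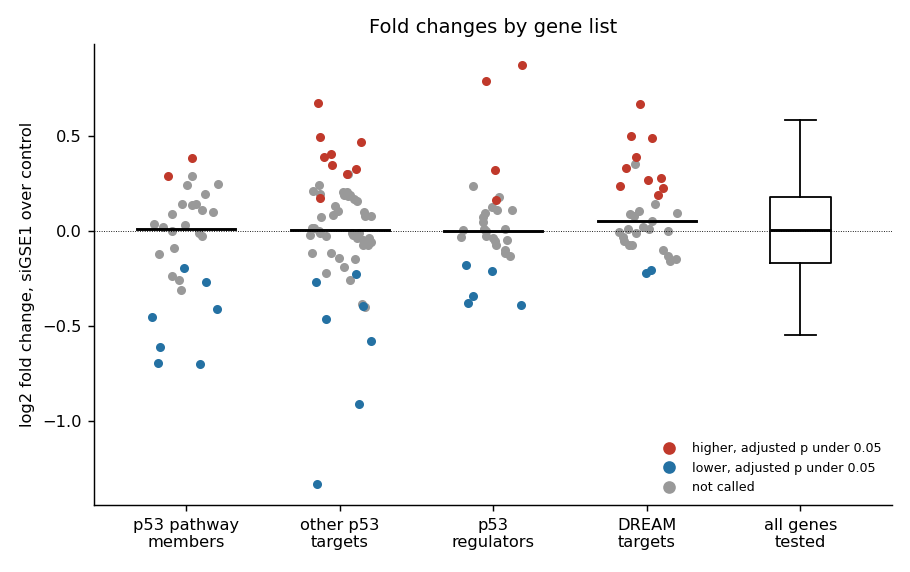
The log2 fold change of siGSE1 over control for each tested gene of the 4 lists, with a black line at each list's median, beside a box for all genes tested (quartiles, with whiskers at the 5th and 95th percentiles). Red and blue points passed the threshold; the medians are 0.01, 0.01, 0.00 and 0.05 for members, other targets, regulators and DREAM targets.

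The scale of the libraries bears on the split of calls. With TPM scaling, which sets the sum of FPKM equal in each library, 2540 genes were higher and 928 lower, against 1730 and 1437 as reported. The median of all genes shifted by 0.06, and the median member stood at 0.07. The members then had 6 higher and 5 lower, with XPC, TP53I3, BTG2 and PLK2 added and ZMAT3 and RRM2B lost. GDF15, TP53INP1, CDKN1A, CCNG1, DDB2 and TNFRSF10B passed in all 14 alternatives tried, SESN1 in 10, RRM2B in 6 and ZMAT3 in 5. All 9 kept their sign in all 14.

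**Figure D5:**
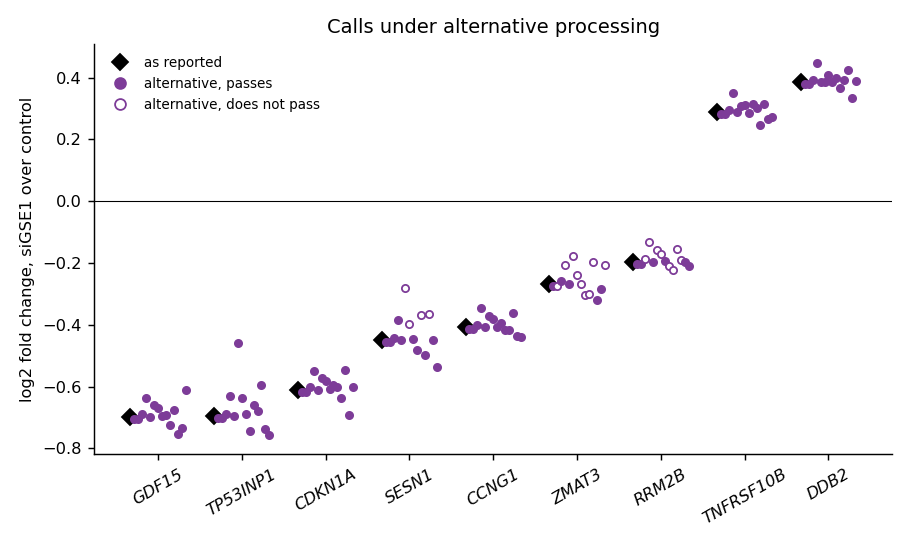
The log2 fold change of siGSE1 over control for the 9 called members under the reported fit (diamond) and the 14 alternatives (circles, open where the adjusted p is 0.05 or more). Open circles occur for SESN1, ZMAT3 and RRM2B, and no point crosses 0.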

How the data were processed

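RNA-seq of 3 siGSE1 and 3 control libraries was read from 1 table of 60612 genes. Per the labels' protocols, libraries were made with the TruSeq RNA kit. The authors deposited whole-number read counts per gene, with no normalization, and FPKM, which match counts scaled by exon length and library total in 100% of values (tolerance 0.0051). Per the submitters' processing notes the tools were HISAT2, HTSeq, StringTie 1.3.3b, edgeR, cutadapt, FastQC and bcl2fastq, with hg38, while the series text names STAR, RPKM and DESeq2. The sources used here give neither the annotation release nor the strand setting of counting. A gene with few counts carries more counting error.

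Counts were tested with edgeR 4.0.16 in R 4.3.3 (TMM, glmQLFit and glmQLFTest with group only). Genes were kept by filterByExpr, at the equivalent of 10 counts at median depth in at least 3 libraries and 15 counts in total. The fit tested 15937 genes, with a biological coefficient of variation of 7.00%. P-values were adjusted by Benjamini-Hochberg over these genes and called under 0.05. The SE of a log2 fold change is its size over the square root of F. Fold changes carry TMM scaling and printed FPKM do not. On simulated counts for this comparison over 15937 genes, 99% of 100 genes changed by 1 on the log2 scale and 62% of 100 changed by 0.4 were recovered. There were 10 false calls among unchanged genes. The changed genes were drawn from the better counted ones, all genes shared 1 dispersion and no library stood apart. Recovery in the real libraries may therefore be lower.

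Alternatives were DESeq2 1.42.0, its size factors in edgeR, no low-count filter, TPM scaling, a robust prior, limma 3.58.1 on log2(FPKM + 1) and log2(FPKM + 0.1), a replicate block and each library left out. The members and lists were chosen with earlier results of these data known. Genes outside the members were named by rule: from each list up to 6 per direction that passed without overlap between groups, by adjusted p, plus CDKN2A and KDM1A. SESN2, TNFRSF10A, TNFRSF10D and APAF1 were chosen after their values were seen. Results for 1 further gene and 1 marker are not reported here.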

Additional observations from a re-analysis of the deposited data

How the results depend on the processing

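Of 420 member values under the 14 alternatives, 363 kept their sign and side of the threshold, 21 lost a call, 16 gained one and 20 changed sign, all of these in members that did not pass. Leaving out each library in turn, the number of genes higher in siGSE1 cells ran from 1049 to 1914 and lower from 814 to 1648. For members the ranges were 2 to 4 higher and 4 to 9 lower, for other targets 4 to 9 lower, for regulators 2 to 4 higher and 3 to 6 lower, and for DREAM targets 0 to 4 lower. With no low-count filter and with the replicate block, 4 members were higher in each. With TPM scaling 928 genes were lower, 6 members and 14 other targets were higher, and 1 DREAM target was lower. With limma on log2(FPKM + 1), 887 genes, 4 members and 3 other targets were lower, and with log2(FPKM + 0.1) 909 genes, 4 members and 4 other targets. The causes were not tested.

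Log2 fold changes that changed sign were small. With TPM scaling they were 0.0553 for PPM1D, 0.0377 for PHLDA3, 0.0615 for FBXO22, 0.0621 for KDM1A and 0.0265 for TNFRSF10A. With limma on log2(FPKM + 1) they were 0.015 for PPM1D, 0.000324 for PHLDA3, 0.0194 for FBXO22 and 0.0287 for KDM1A, and with log2(FPKM + 0.1) 0.0181 for PPM1D, 0.00037 for PHLDA3, 0.0221 for FBXO22 and 0.0304 for KDM1A. With no low-count filter they were 0.00737 for FBXO22 and 0.00642 for KDM1A, and with the replicate block 0.00455 for KDM1A. With a library left out the ranges were -0.0569 to 0.0474 for PPM1D, -0.0719 to 0.294 for PLK3, -0.0852 to 0.0197 for PHLDA3, -0.0266 to 0.0837 for AEN, -0.00666 to 0.0572 for BAX, -0.0236 to 0.014 for FBXO22, -0.0687 to 0.103 for KDM1A and -0.0946 to 0.00426 for TNFRSF10A.

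The labels do not say whether replicate numbers pair the libraries, and no shared deviation by number was seen. Deviations from the group mean correlated at 0.02, -0.02 and 0.00 for numbers 1, 2 and 3. With the replicate block 3097 genes were called, against 3167, ZMAT3 lost its call and XPC and TP53I3 gained one. Depth limits TNFRSF10C, with 5 to 11 counts a library.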

Other observations

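SESN2, TNFRSF10D, TNFRSF10A and APAF1, all from the list of further p53 targets, were chosen after their values were seen. SESN2, the stress-inducible paralog of SESN1, had 8.13, 9.52 and 9.63 FPKM in siGSE1 cells and 7.18, 5.30 and 7.92 FPKM in control cells, without overlap. It was higher by 0.41 on the log2 scale (SE 0.12, edgeR adjusted p = 0.0232), where SESN1 was lower at -0.45. The SESN2 call was lost in 4 of 14 alternatives, among them without siGSE1 replicate 2 (adjusted p = 0.0987) and without siGSE1 replicate 3 (adjusted p = 0.120).

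Among receptors of the ligand TRAIL, the decoy receptor gene TNFRSF10D had 30.5 ± 0.87 FPKM in siGSE1 cells and 26.5 ± 1.34 FPKM in control cells (SD, n = 3 each). It was higher by 0.18 on the log2 scale (edgeR adjusted p = 0.0441) and passed in 6 of 14 alternatives. The death receptor gene TNFRSF10A had 13.1, 15.1 and 13.7 FPKM in siGSE1 cells and 14.5, 13.5 and 14.2 FPKM in control cells, a log2 fold change of -0.04 with a 95% interval of -0.19 to 0.12, and its sign flipped with TPM scaling. APAF1, the scaffold of the apoptosome, had 4.59 ± 0.27 FPKM in siGSE1 cells and 3.61 ± 0.47 FPKM in control cells (log2 fold change 0.32, edgeR adjusted p = 0.0216), and passed in 9 of 14 alternatives, not without control replicate 2 (adjusted p = 0.0626).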
